A study of Mus musculus with 12 samples.

Results

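The myogenic transcription factors are the DNA-binding proteins that take a muscle stem cell through commitment, differentiation and fibre maturation. The 9 genes Pax7, Pax3, Myf5, Myod1, Myog, Myf6, Mef2a, Mef2c and Mef2d were chosen by name. Their measured values were not used for the choice, although earlier results of these data were known. All 9 were found among the 54532 genes of the count table, and 8 of them were among the 16393 genes with enough counts to test. Pax3 was not tested.

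RNA was sequenced from 12 samples of whole tibialis anterior, the shin muscle of the mouse. All were collected 5 days after glycerol had been injected to injure the muscle, a model in which fat forms as it heals. The 6 control libraries are labelled Wildtype, and the 6 knockout libraries are labelled FAP no ppary. According to the series' design text, ppary (Pparg, the main transcription factor of fat cell formation) was conditionally deleted in FAPs, the fibro-adipogenic progenitors of muscle. Both groups carry the strain label 129svlmJ. The Cre driver, the Pparg allele, the sex and the age of the mice, and whether Wildtype muscle carried a Cre or a floxed allele, are not given in the sources used here. Nothing in the labels ties a library to an animal, so every p-value here reflects only how much these samples varied. The comparison asks how the program of muscle repair stood in injured muscle whose FAPs lacked Pparg.

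In injured muscle, PAX7 marks the satellite cells, the resident stem cells that rebuild fibres, and PAX3 is its paralog, used mainly in the embryo. MYF5 and MYOD1, members of the basic helix-loop-helix (bHLH) family, commit these cells to muscle, and myogenin (Myog) then drives the committed myoblasts to leave the cell cycle and fuse. MYF6, also called MRF4, is the family member of late differentiation and of the mature fibre. The MEF2 proteins are MADS-box factors that bind DNA beside the bHLH factors and sustain the genes of the contractile apparatus. The bHLH factors bind the E-box as dimers with E proteins, and the MEF3 element is a further site found in muscle promoters.

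The 3 promoters shown were picked because they hold letters of these sites. Each is the 300 bases from 250 before to 50 after the RefSeq start site, read 5′ to 3′ on the strand of the gene from the mouse build GRCm38.p6. They belong to Myog (chr1:134289754-134290053, plus strand), to the first listed of 3 starts of Mef2c (chr13:83503784-83504083, plus strand) and to Mef2a (chr7:67372809-67373108, minus strand). Capitals mark matches on either strand to the E-box CANNTG, to the MEF3 core TCAGGTT and to the MEF2 consensus.
Myog: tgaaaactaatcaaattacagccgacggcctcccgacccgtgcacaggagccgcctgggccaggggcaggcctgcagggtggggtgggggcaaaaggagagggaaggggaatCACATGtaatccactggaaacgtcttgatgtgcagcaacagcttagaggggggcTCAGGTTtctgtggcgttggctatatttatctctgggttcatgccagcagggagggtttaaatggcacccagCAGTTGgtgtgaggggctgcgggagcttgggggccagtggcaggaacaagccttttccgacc
Mef2c: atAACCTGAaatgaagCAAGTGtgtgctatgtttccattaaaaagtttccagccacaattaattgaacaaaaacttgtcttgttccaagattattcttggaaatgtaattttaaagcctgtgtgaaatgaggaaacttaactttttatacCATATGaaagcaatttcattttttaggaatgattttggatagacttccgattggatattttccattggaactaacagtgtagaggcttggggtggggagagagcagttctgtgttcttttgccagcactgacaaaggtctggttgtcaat
Mef2a: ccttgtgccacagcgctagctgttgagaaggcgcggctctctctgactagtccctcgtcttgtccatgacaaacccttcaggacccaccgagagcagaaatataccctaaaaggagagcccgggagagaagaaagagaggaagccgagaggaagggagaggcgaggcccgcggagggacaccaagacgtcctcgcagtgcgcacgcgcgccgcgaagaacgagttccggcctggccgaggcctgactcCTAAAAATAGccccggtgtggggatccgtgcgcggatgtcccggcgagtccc
Counted from the start base as 1, with the base before it as -1, the Myog promoter held the E-boxes CACATG at -138 to -133 and CAGTTG at -12 to -7. Its MEF3 core lay between them, at -84 to -78. The Mef2c window held the E-boxes CAAGTG at -234 to -229 and CATATG at -100 to -95, and the MEF3 core on the opposite strand at -248 to -242. Mef2a held the MEF2 consensus as CTAAAAATAG, from -2 to 8, across the start itself. The second Mef2c window held none of these letters, the third held 1 E-box, CAGATG, and the windows of Pax7, Myf5 and Mef2d held none. Across the 32817 promoters of the same length, 72.3% held an E-box, 4.07% the MEF3 core and 3.19% the MEF2 consensus. RefSeq promoters were matched for 6 of the 9 genes, and Pax3, Myod1 and Myf6 had no entry. Binding was not measured here, and a match is only a description of the letters.

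Library totals ranged from 15716056 to 29790720 counts. Pparg was lower in the knockout libraries, with a mean of 57.4 ± 8.27 CPM (counts scaled to library size) over the controls against 26.4 ± 10.3 CPM (SD, n = 6 each, log2 fold change -1.12, SE 0.21, edgeR quasi-likelihood adjusted p = 0.0299). All 6 knockouts lay below all 6 controls, and knockouts 1 and 2 kept the highest Pparg of their group, at 33.9 and 43.1 CPM. The Pparg call did not hold in 8 of the 12 edgeR fits without one library (without control 1, 2, 4, 5 or 6, or knockout 3, 4 or 6), where the adjusted p lay between 0.0521 and 0.0856. The Y-linked genes Ddx3y, Eif2s3y, Kdm5d and Uty had 0 counts in every library. The 10 fibre markers, such as Acta1 and Ckm, were present in every library. In 3 libraries they were lower than in the rest. Their mean log2 CPM was 10.67 in knockout 6, 10.91 in control 2 and 10.93 in control 6, against 11.64 to 12.23 in the other 9. Over 24 loci whose levels were either high or low, with nothing between, control 2 matched control 3, control 4 matched control 5, knockout 3 matched knockout 4 and knockout 5 matched knockout 6 at 100% of loci. No other pair exceeded 79.2%. The 12 libraries therefore form 8 sets on these loci, 4 in each group, and whether a matched pair shares an animal or litter was not tested. With the counts of matched libraries summed, 0 genes passed the edgeR test, Pparg included (adjusted p = 0.335), and with the 3 libraries low in fibre markers left out 9 genes passed, Pparg not among them (adjusted p = 0.234).

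None of the 8 tested factors passed the threshold of an adjusted p under 0.05, in either direction. Over all tested genes 0.799% passed it, and 0.0488% passed it as higher in the knockout. Every tested factor had a fitted log2 fold change above 0, from 0.04 for Myf6 to 0.56 for Myod1, with a median of 0.29. Among all tested genes the median was -0.0013 and 49.5% were above 0. By unadjusted p under 0.05, 4 factors (Myod1, Myog, Mef2a and Mef2d) were higher in the knockout, where 3.79% of all tested genes were. The factors were measured in the same libraries, and 26 of their 28 pairs correlated positively with the group means removed. Their signs and p-values are therefore not 8 separate observations. In none of the 8 did the groups separate fully, whereas they did in 1.43% of all tested genes. With DESeq2 1 factor passed (Myod1, adjusted p = 0.0387), where 2.43% of all tested genes did. With limma-voom 2 passed (Myod1, adjusted p = 0.0334, and Mef2d, adjusted p = 0.0363), where 2.37% of all tested genes did.

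**Figure D1:**
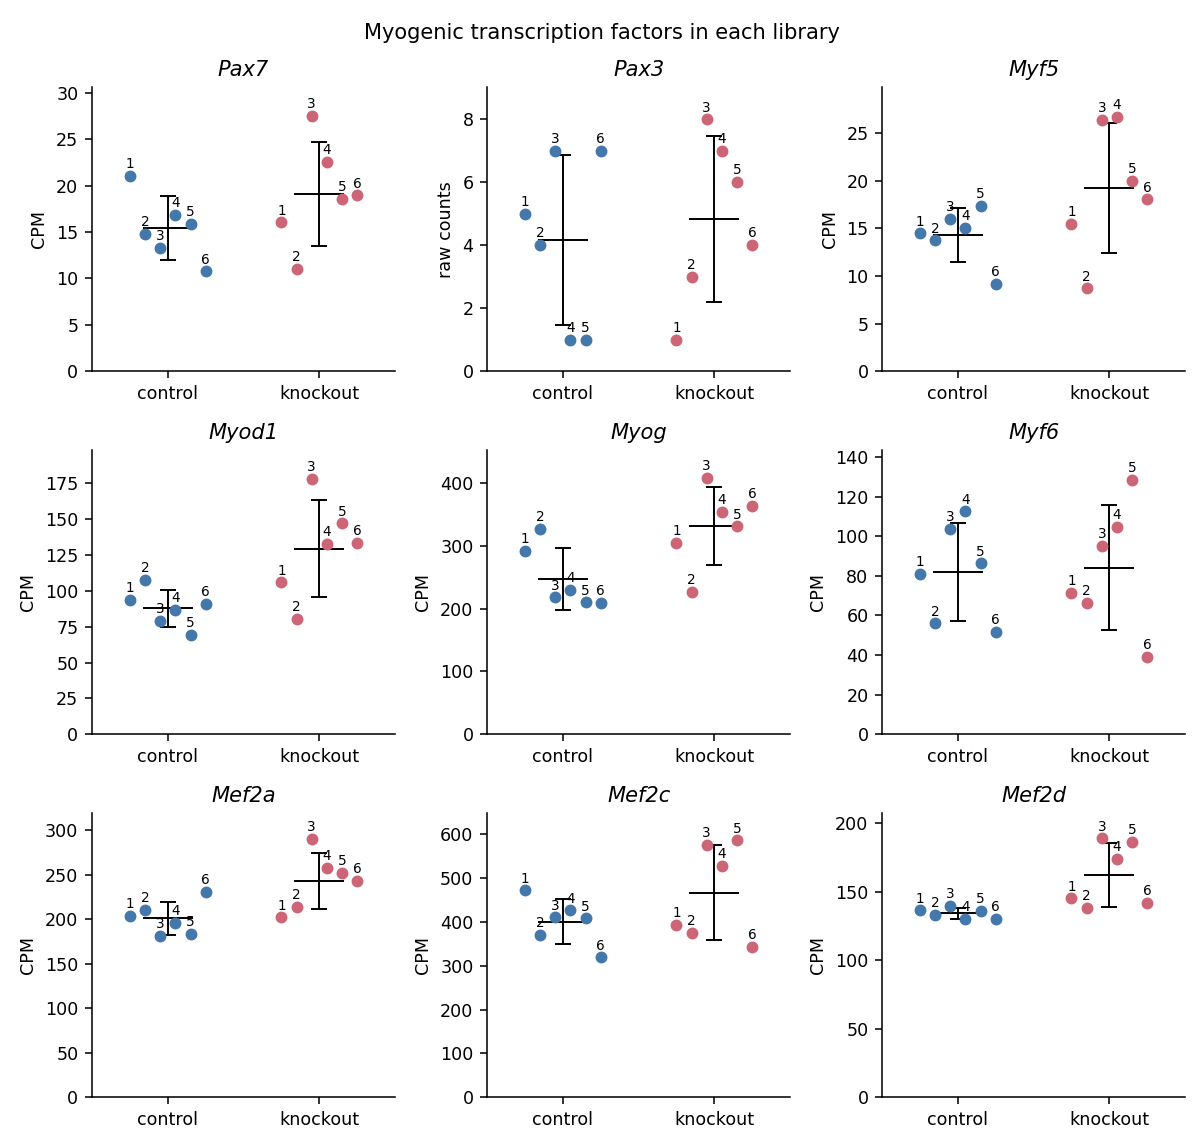
Level of each of the 9 factors in each library, in CPM (raw counts for Pax3), for 6 control and 6 knockout libraries; points carry the replicate number, the horizontal line is the mean and the bar 1 SD on each side. Knockouts 3, 4 and 5 sit above all controls for 7 of the 8 tested factors, while knockouts 1 and 2 sit mostly within the control range.

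The factors differed from each other by far more than the groups did. In the authors' deposited FPKM (fragments scaled to the gene length of the table and to library depth), Myog had the highest control median, 148, and Pax3 the lowest, 0.034. Between them came Myf6 at 65.2, Myod1 at 47.2, Mef2c at 25.7, Mef2d at 22.2, Mef2a at 13.4, Myf5 at 6.97 and Pax7 at 2.58 FPKM. In FPKM this order held in all 12 libraries for every neighbouring pair except 2. Myf6 exceeded Myod1 in only 7 of 12 libraries and Mef2c exceeded Mef2d in 10 of 12, and in both pairs the ranges overlapped in each group. The ranges of Myf5 and Pax7 also overlapped in the knockouts, although Myf5 was the higher in each library. The order depends on the length used, since the gene lengths of Mef2a and Mef2c, 14681 and 15715 bases, exceed their longest GENCODE M21 transcripts of 5538 and 6277 bases. Per kilobase of the longest transcript, a measure added after seeing the data, the control medians of Mef2c and Mef2a were 65.2 and 36.1 CPM. Mef2c then exceeded Myod1 (47.7) in 10 of 12 libraries and Mef2a exceeded Mef2d (24.9) in 12 of 12, while Myog stayed first and Myf5, Pax7 and Pax3 last.

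Among the stem cell factors, Pax7 (ENSMUSG00000028736, minus strand of chromosome 4, 139737062 to 139833528 in GRCm38), the defining factor of the satellite cell, ranged from 10.8 to 21.1 CPM in controls, with a median of 15.3. In the knockouts it ranged from 11.0 to 27.5 CPM, with a median of 18.8. The groups overlapped, and only knockouts 3 and 4 exceeded every control. Its log2 fold change was 0.31 (SE 0.20, 95% interval -0.12 to 0.74, edgeR quasi-likelihood adjusted p = 0.737). Pax3 (ENSMUSG00000004872, minus strand of chromosome 1, 78101267 to 78197134) had between 1 and 7 raw counts in a control library, with a median of 4.5, and between 1 and 8 in a knockout library, with a median of 5.0. In total there were 25 control and 29 knockout counts, and at this depth no difference could be measured. Fewer cells of a type and less RNA per cell cannot be told apart in whole muscle, for these genes and those that follow.

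Myf5 and Myod1, the commitment factors, differed in size and spread. Myf5 (ENSMUSG00000000435, minus strand of chromosome 10, 107482908 to 107486134) ranged from 9.19 to 17.4 CPM in controls, with a median of 14.8, and from 8.70 to 26.7 CPM in knockouts, with a median of 19.0. Knockouts 3 to 6 exceeded every control and knockout 2 fell below every control, so that the knockout range enclosed the control range. The fitted log2 fold change was 0.43 (SE 0.23, 95% interval -0.07 to 0.93, edgeR quasi-likelihood adjusted p = 0.633). Myf5 is a compact gene, and 6718 bases separate it from its relative Myf6 on the same strand.

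Myod1 (ENSMUSG00000009471, plus strand of chromosome 7, 46376474 to 46379099) had the largest difference of the 8. It ranged from 69.5 to 107.6 CPM in controls, with a median of 88.7, and from 80.4 to 178 CPM in knockouts, with a median of 133. Knockouts 3 to 6 stood above every control, at 178, 133, 147 and 133 CPM, while knockouts 1 and 2 lay within the control range, at 106 and 80.4 CPM. The log2 fold change was 0.56 (SE 0.16, 95% interval 0.21 to 0.91, edgeR quasi-likelihood adjusted p = 0.161), a fold of 1.48. The adjusted p ranged from 0.0290 to 0.776 over the alternatives. It was 0.0290 without knockout 2 and 0.776 when the matched libraries were summed. The 4 knockout libraries above the controls are the matched pairs 3 with 4 and 5 with 6, and so stand for 2 sets.

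Myog (ENSMUSG00000026459, plus strand of chromosome 1, 134289989 to 134292548), the factor of terminal differentiation whose promoter is printed above, ranged from 209.7 to 327 CPM in controls, with a median of 224. In knockouts it ranged from 227 to 408 CPM, with a median of 343. The same 4 knockouts exceeded every control, the closest being knockout 5 at 331 CPM beside control 2 at 327 CPM. The log2 fold change was 0.42 (SE 0.15, 95% interval 0.10 to 0.74, edgeR quasi-likelihood adjusted p = 0.296). The ratio of Myog to Myod1 in FPKM had a median of 3.59 in controls (range 2.88 to 3.87) and of 3.36 in knockouts (range 2.80 to 3.58). The ranges of this ratio overlapped, and its group difference was not tested.

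Myf6 (ENSMUSG00000035923, minus strand of chromosome 10, 107492853 to 107494737), the late factor, had the smallest group difference of the 8. It ranged from 51.8 to 112.5 CPM in controls, with a median of 83.6, and from 39.1 to 128 CPM in knockouts, with a median of 83.2. The groups overlapped almost completely. The log2 fold change was 0.04 (SE 0.27, 95% interval -0.54 to 0.62, edgeR quasi-likelihood adjusted p = 0.993), an interval that spans folds from 0.687 to 1.54. Without control 2, control 6, knockout 3, knockout 4 or knockout 5 the value lay just below 0, down to -0.11.

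The 3 libraries low in fibre markers were the 3 lowest for Myf6, at 39.1 CPM in knockout 6, 51.8 CPM in control 6 and 56.0 CPM in control 2, and all of the other 9 were higher, from 66.3 to 128 CPM. Mef2c divided in the same way, with 319, 343 and 370 CPM in the 3 libraries and 375 to 586 CPM in the other 9. Myod1 and Myog did not. Only 2 of the other 9 libraries for Myod1, and 1 for Myog, exceeded all 3. These 3 libraries also had the lowest share of counts on the protein genes of the mitochondrial genome, from 2.66% to 3.92%. The part of fibre content in the Myf6 values was not tested. With the 3 libraries left out, 0 of the 8 factors passed and 7 had a log2 fold change above 0, Myf6 standing at -0.0375, Myod1 at 0.65 (adjusted p = 0.286) and Myog at 0.46 (edgeR quasi-likelihood adjusted p = 0.322).

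**Figure D2:**
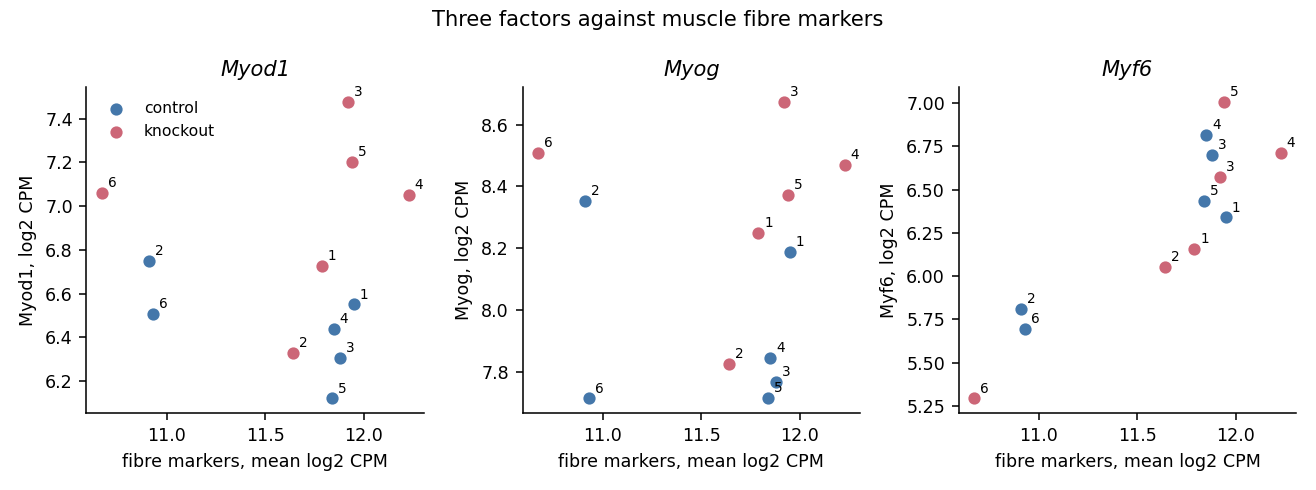
Myod1, Myog and Myf6 (vertical axes, log2 CPM) against the mean log2 CPM of 10 muscle fibre markers (horizontal axes), 1 point per library with its replicate number. Knockout 6, control 2 and control 6 stand to the left, at 10.67 to 10.93, and are the 3 lowest for Myf6 but not for Myod1 or Myog.

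Mef2a, Mef2c and Mef2d, the MEF2 genes measured here, are broadly expressed and not limited to muscle cells. Mef2a (ENSMUSG00000030557, minus strand of chromosome 7, 67231163 to 67372858) ranged from 181 to 230 CPM in controls, with a median of 199.8, and from 202 to 290 CPM in knockouts, with a median of 248. Knockouts 3 to 6 exceeded every control. Its log2 fold change was 0.28 (SE 0.10, 95% interval 0.07 to 0.48, edgeR quasi-likelihood adjusted p = 0.280). Mef2a overlaps Lysmd4, a gene on the opposite strand with a mean of 297 counts per library, and whether the counting used strand is not stated in the sources used here.

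Mef2c (ENSMUSG00000005583, plus strand of chromosome 13, 83504034 to 83667080), the MEF2 gene needed for sarcomere organisation, ranged from 319 to 472 CPM in controls, with a median of 409, and from 343 to 586 CPM in knockouts, with a median of 460. Knockouts 3, 4 and 5 exceeded every control, and the other 3 lay within the control range. The log2 fold change was 0.22 (SE 0.15, 95% interval -0.10 to 0.53, edgeR quasi-likelihood adjusted p = 0.757).

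Mef2d (ENSMUSG00000001419, plus strand of chromosome 3, 88142372 to 88172086), whose muscle-specific splice form acts in late differentiation, was the steadiest of the 9 in the controls. It ranged from 130.0 to 139.8 CPM there, with a median of 135 and a coefficient of variation of 2.86%. In the knockouts it ranged from 138 to 189 CPM, with a median of 159.6 and a coefficient of variation of 14.4%. All knockouts except knockout 2 exceeded every control, knockout 6 only narrowly, at 142 CPM. Its log2 fold change was 0.27 (SE 0.09, 95% interval 0.08 to 0.46, edgeR quasi-likelihood adjusted p = 0.234). Gene counts do not separate splice forms. The antisense gene 1700113A16Rik, which overlaps Mef2d, had a mean of 11.3 counts per library.

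**Figure D3:**
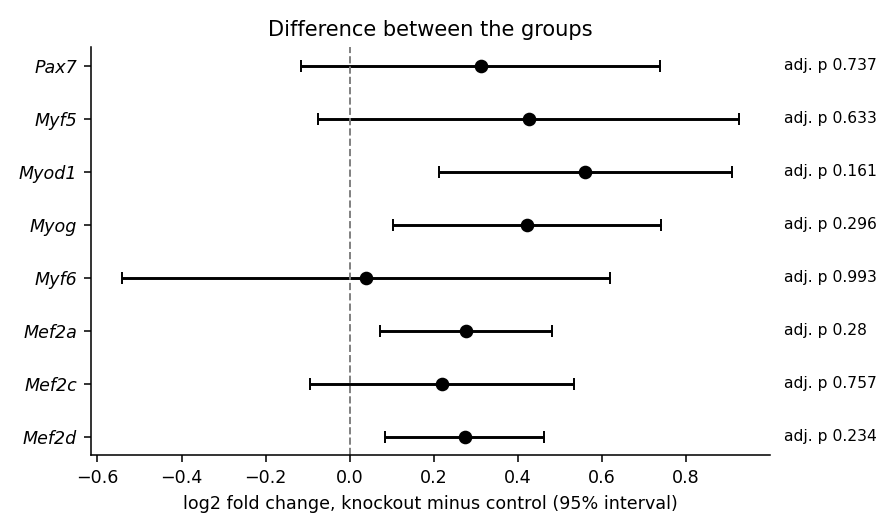
Log2 fold change of knockout minus control for the 8 tested factors, from stem cell (top) to late differentiation (bottom), with 95% intervals from the edgeR fit and the adjusted p at the right. All 8 points lie above 0, and the intervals of Myod1, Myog, Mef2a and Mef2d do not reach it.

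The knockout libraries were not uniform. Knockouts 3, 4 and 5 each exceeded every control for 7 of the 8 tested factors and knockout 6 for 5, while knockout 1 did so for 1 (Mef2d) and knockout 2 for 0. Knockouts 1 and 2 also had the highest sums of 10 adipocyte markers in their group, 2517 and 2217 CPM, against 687 to 1540 CPM in knockouts 3 to 6 and 3631 to 5646 CPM in controls. Their FAP marker sums, 2746 and 2576 CPM, lay in the upper part of the knockout range of 1871 to 2746 CPM, below the controls at 2775 to 3320 CPM. Knockout 6 lay between knockouts 1 and 2 in this sum, at 2629 CPM. By the mean log2 CPM of the same 10 FAP markers the groups overlapped, at 7.309 to 7.707 in controls and 6.812 to 7.422 in knockouts. On that measure knockout 4, at 7.392, lay between knockout 1 at 7.422 and knockout 2 at 7.363. Of the adipocyte markers 3 of 10 were lower by the edgeR test (Fabp4, Lpl and Adrb3), and of the FAP markers 2 of 10 (Col15a1 and Gsn). By unadjusted p under 0.05, 10 of 10 adipocyte markers and 5 of 10 FAP markers were lower. Of the 16393 tested genes, 123 were lower by the edgeR test and 931 by unadjusted p. The groups did not overlap for 8 adipocyte markers, for 2 FAP markers and for 1.43% of all tested genes. The part of these cell types in the levels of the factors was not tested.

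Marker lists of the other cell types overlapped between the groups. Macrophage markers summed to 7126 to 8655 CPM in controls and 5451 to 9374 CPM in knockouts, endothelial markers to 334 to 424 and 244 to 424 CPM, and mural markers to 2587 to 4050 and 2604 to 4813 CPM. For the macrophage sum knockouts 1, 3, 4 and 5 lay below every control, at 7046, 5451, 5545 and 6240 CPM. Knockout 2 lay above every control, at 9374 CPM. The part of macrophages in the levels of the factors was not tested. Most of the mural sum came from Des, which is also a fibre marker, with means of 2667 CPM in controls and 2961 CPM in knockouts. This sum therefore does not separate mural cells from muscle fibres. Markers of T and NK cells were low, at 9.39 to 28.2 CPM in controls and 20.7 to 45.3 CPM in knockouts, and 0 of 10 passed the edgeR test, with 5 at an unadjusted p under 0.05. These 5 were higher in the knockout, as were 3.79% of all tested genes at that p. B cell markers (3.75 to 9.09 and 5.07 to 7.52 CPM), Schwann cell markers (34.9 to 46.6 and 36.8 to 41.8 CPM) and tendon cell markers (216 to 997 and 292 to 536 CPM) also overlapped. The fibre markers summed to 24520 to 51340 CPM in controls and 20730 to 63660 CPM in knockouts, and 0 of 10 passed, with 0 at an unadjusted p under 0.05. All 10 had a log2 fold change above 0, with a median of 0.16, where 49.5% of all tested genes were above 0. None of the markers was at 0 over all libraries.

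The correlations between the factors had a more uniform sign over the knockout libraries than over the controls. Pearson's r was positive for all 28 pairs of factors over the 6 knockouts, but for 18 of 28 over the 6 controls, where Myf5 with Mef2a stood at -0.93 and Myf6 with Mef2a at -0.83. Whether the groups differ in this was not tested, and no share of positive pairs among other genes is set beside these counts. The 6 knockouts form only 4 sets. With the group means removed, r over the 12 libraries was positive for 26 of the 28 pairs. Because matched libraries may not be independent, the pairs were tested over the 8 sets, with all 576 permutations of the sets within their groups. Pax7 with Myf5 had r = 0.90 (exact permutation p = 0.0104, rho = 0.79, p = 0.0625) over the sets. Myod1 with Myog had r = 0.87 (exact permutation p = 0.0087, rho = 0.90, p = 0.0122), and Mef2c with Mef2d had r = 0.80 (exact permutation p = 0.0052, rho = 0.81, p = 0.0174). With the 2 sets farthest from the median left out, these values of r were 0.76, 0.61 and 0.79. High values were not limited to factors of the same or neighbouring stages. The highest over the sets was Pax7 with Mef2c, at 0.95 (0.97 without the 2 farthest sets), and Myod1 with Mef2d reached 0.91. None of the 28 pairs had an adjusted p under 0.05 for r or for rho, the smallest being 0.0547 and 0.0707 (Benjamini-Hochberg over exact permutation p). Over the 12 libraries the negative pairs were Myog with Myf6 (-0.04, but 0.50 over the 8 sets) and Myf6 with Mef2a (-0.03, and -0.04 over the sets, where it was the only negative pair).

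**Figure D4:**
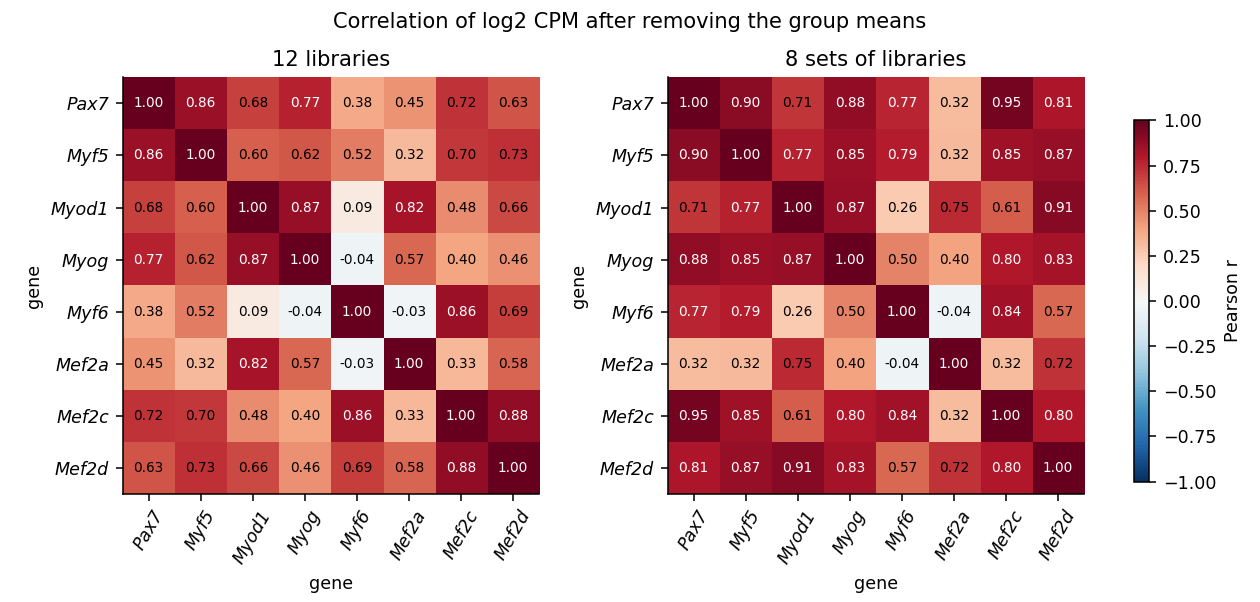
Pearson's r between the log2 CPM of each pair of tested factors after the group means were removed, over 12 libraries (left) and over 8 sets in which matched libraries were averaged (right); red is positive, blue negative. Most pairs are positive (26 of 28 on the left, 27 of 28 on the right), and the pair of Myf6 and Mef2a is just below 0 in both. The 3 libraries low in Myf6 and Mef2c enter every pair of these genes.

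Among 12520 protein-coding genes outside the 9 that had a mean log2 CPM no lower than 1, the genes nearest to each factor in this measure were found over the 12 libraries. Pax7 was nearest to Lypd6 and Tln2 (both r = 0.94), Myf5 to Myzap (0.97) and Pm20d1 (0.96), and Myod1 to Cdk5r1 and Hs6st2 (both 0.95). Myog was nearest to Megf10 and Capn6 (both 0.96), and Myf6 to Nudt3 (0.98) and Asph (0.97). Mef2a was nearest to Chrnd (0.94), which encodes the delta subunit of the acetylcholine receptor, and to Prrc2b (0.93). Mef2c was nearest to Srpk3 (0.99), a muscle kinase of splicing factors, and to Tecr (0.98), and Mef2d to Klc1 (0.97) and Pabpc1l (0.95). These are the highest of many values over few libraries, and no test was attached to them.

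The genes that act with or on the factors were read from 3 lists. For comparison, 49.5% of all tested genes were above 0, and 3.79% were higher in the knockout at an unadjusted p under 0.05 (edgeR). Of 17 bHLH partners and inhibitors, 0 passed the edgeR test in either direction (0 at an unadjusted p under 0.05), 11 were above 0 and the median log2 fold change was 0.03. The E proteins Tcf3, Tcf12 and Tcf4, the dimer partners of MYOD1, stood at 62.6 ± 6.34, 85.3 ± 4.64 and 127 ± 7.57 CPM in the controls and at 62.6 ± 3.76, 87.4 ± 9.69 and 121 ± 12.9 CPM in the knockout libraries (SD, n = 6 each). Id1, which binds E proteins without binding DNA, stood at 28.1 ± 3.02 and 28.6 ± 4.13 CPM. Each of the 4 had overlapping groups, and the fitted differences lay between -0.07 and 0.04 on the log2 scale.

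Of 16 upstream factors 0 passed in edgeR (1 at an unadjusted p under 0.05), 11 were above 0 and the median was 0.17. Six4, a homeobox factor of muscle, stood at 20.7 ± 1.56 CPM in the controls and 24.5 ± 5.44 CPM in the knockout libraries (log2 fold change 0.24, edgeR quasi-likelihood adjusted p = 0.633). The transcriptional cofactors Eya1 and Eya2 stood at 12.7 ± 3.06 and 2.71 ± 0.645 CPM in the controls and at 11.6 ± 2.72 and 3.06 ± 1.35 CPM in the knockout libraries. Tead4, a factor of the Hippo pathway picked out here after its values were seen, had the smallest adjusted p of this list, 0.160, with 22.3 ± 2.96 against 30.1 ± 5.47 CPM.

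Of 16 listed regulators of MEF2 proteins 15 were tested, 0 passed in edgeR (0 at an unadjusted p under 0.05), 10 were above 0 and the median was 0.04. The untested gene, named here only for that reason, was Mef2b, itself a MEF2 gene, with 89 counts in all. The class IIa deacetylases Hdac4, Hdac5, Hdac7 and Hdac9, which bind and repress MEF2 proteins, had log2 fold changes of 0.07, -0.0071, 0.13 and 0.01. Hdac5 stood at 87.3 ± 5.13 CPM in the controls and 86.9 ± 11.5 CPM in the knockout libraries. The smallest adjusted p of this list was 0.804 (edgeR quasi-likelihood), and the groups of each of the 4 deacetylases overlapped.

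Genes typical of the cells that carry the factors were read from 3 further lists. Of 16 satellite cell genes 14 were tested, 0 passed in edgeR, 13 were above 0 and the median was 0.29, with 5 at an unadjusted p under 0.05. These 5 were higher in the knockout, as were 3.79% of all tested genes at that p, and 49.5% of all tested genes were above 0. Cdh15, the M-cadherin of satellite cells and myoblasts, stood at 51.2 ± 9.05 CPM in the controls and 77.0 ± 18.9 CPM in the knockout libraries (log2 fold change 0.59, SE 0.16, edgeR quasi-likelihood adjusted p = 0.128), with 4 of 6 knockouts above every control. Fgfr4, a growth factor receptor of myoblasts, stood at 40.7 ± 7.94 and 61.4 ± 22.5 CPM (0.59, SE 0.23, adjusted p = 0.385), and Megf10, a receptor of satellite cells, at 26.7 ± 8.38 and 38.4 ± 10.6 CPM (0.52, SE 0.22, adjusted p = 0.440). Calcr, the calcitonin receptor of quiescent satellite cells, was near the limit of detection at 0.650 ± 0.349 and 0.479 ± 0.153 CPM (-0.46, SE 0.43, adjusted p = 0.870).

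Of 23 differentiation genes 0 passed in edgeR, 23 were above 0 and the median was 0.28, with 7 at an unadjusted p under 0.05. These 7 were higher in the knockout, as were 3.79% of all tested genes at that p, and 49.5% of all tested genes were above 0. The fusion gene Mymk stood at 177 ± 30.7 CPM in the controls and 217 ± 31.5 CPM in the knockout libraries (log2 fold change 0.29, SE 0.12, edgeR quasi-likelihood adjusted p = 0.452), and its partner Mymx at 35.8 ± 11.2 and 46.0 ± 8.09 CPM (0.36, SE 0.18, adjusted p = 0.577). The embryonic and neonatal myosin heavy chains Myh3 and Myh8 stood at 1759 ± 442 and 989 ± 221 CPM in the controls and at 2258 ± 548 and 1231 ± 446 CPM in the knockout libraries (adjusted p = 0.606 and 0.772). Dok7, an adaptor of the neuromuscular junction, was the only gene of the 6 lists whose groups did not overlap, at 28.5 ± 3.61 against 42.9 ± 9.14 CPM (0.59, SE 0.13, adjusted p = 0.0628). The groups also did not overlap in 1.43% of all tested genes. Dok7 was picked out after its values were seen.

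Of 21 mature fibre genes 0 passed in edgeR (1 at an unadjusted p under 0.05), 20 were above 0 and the median was 0.12. Muscle creatine kinase Ckm stood at 1843 ± 746 CPM in the controls and 2099 ± 736 CPM in the knockout libraries, and Myh4, the fastest adult myosin heavy chain, at 7330 ± 2847 and 8206 ± 3034 CPM (edgeR quasi-likelihood adjusted p = 0.950 and 0.961). Myh1 stood at 2405 ± 874 and 2501 ± 799.7 CPM. Myh2 stood at 101 ± 61.3 and 102 ± 64.4 CPM, and its fitted difference of 0.01 on the log2 scale turned to below 0 in several alternatives. In each of these 4 the spread within a group was larger than the difference between the groups. With DESeq2 and with limma-voom, 1 gene passed in each of 3 lists (Tead4, Cdh15 and Dok7) and 0 in the other 3. Of all tested genes, 2.43% passed with DESeq2 and 2.37% with limma-voom. The lists were chosen with earlier results of these data known, and no test was attached to a list.

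**Figure D5:**
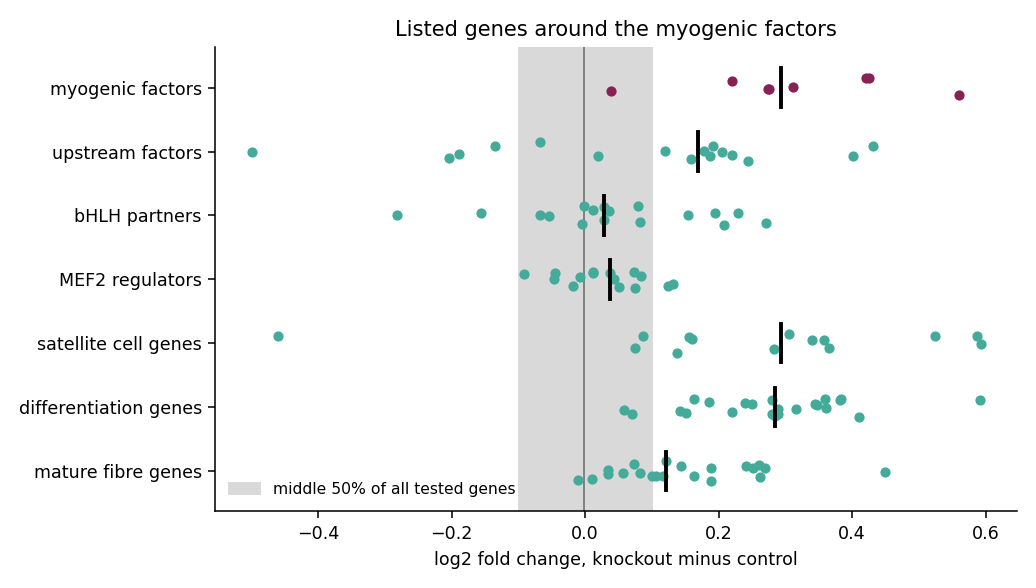
Log2 fold change of knockout minus control for every tested gene of 7 groups, 1 point per gene, with the median of each group as a vertical bar and the middle 50% of all tested genes (-0.10 to 0.10) shaded. The medians run from 0.03 for the bHLH partners and 0.04 for the MEF2 regulators over 0.12 for mature fibre genes and 0.17 for upstream factors to 0.28 for differentiation genes and 0.29 for satellite cell genes and the myogenic factors. The shading describes single genes and is no yardstick for a median.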

How the data were processed

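Polyadenylated RNA of 12 whole muscle samples was sequenced. Read counts per gene, whole numbers, were deposited by the authors and made against GRCm38 (mm10) with HISAT2 2.0.5, fastp and featureCounts, as named in the submitters' processing notes. The authors also deposited FPKM values. The strand setting and annotation release are not given in the sources used here, and the labels' protocol describes both directional and non-directional libraries. Where genes overlap, reads of the 2 strands may therefore not be separated.

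Counts were fitted with edgeR 4.0.16 in R 4.3.3 over all genes: filterByExpr (minimum count 10, minimum total 15) left 16393 genes, scaled by TMM. Group was the only term, with robust quasi-likelihood tests and Benjamini-Hochberg adjustment over all tested genes, at 0.05. The SE is the size of the log2 fold change divided by the square root of F. CPM use TMM library sizes, and log2 CPM a prior count of 2. On simulated counts of these libraries for this comparison (16393 genes), the fit recovered 75 of 100 genes changed 1.5-fold and 92 of 100 changed 2-fold, with 5 false calls among 172. The changed genes were drawn from those above the median of mean counts. Every simulated library was drawn independently, so these rates do not cover any dependence between matched libraries. Within groups, counts of library pairs differed by more than sampling noise (chi-square per degree of freedom 13.1 to 160.8), so none was counted as a duplicate.

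Alternatives covered scaling, DESeq2 1.42.0, limma-voom (limma 3.58.1), low-count filters, the replicate number as a block, the mitochondrial share of counts, log2(FPKM + 1) and log2(FPKM + 0.1), and each library left out. Added after seeing the data were counts summed over matched libraries, and the 3 libraries with the lowest fibre markers left out. Matched libraries were found from 24 loci whose log2 levels split into high and low values across a gap of at least 2. In the correlations, matched libraries were averaged. Replicate numbers were not taken as pairs, since the correlations between samples of the same number were not all above 0.1.

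Named genes are the 9 factors, Pparg, the first 4 tested genes of each list and, for each factor, the 2 genes nearest in log2 CPM after group means were removed. A gene of the upstream list that this rule names is left out of the text but counted with its list. Other genes named in the text, markers aside, are marked where they appear. The members and lists were chosen with earlier results of these data known. No member shared more than 0.446% of its 50-base words with another gene.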

Additional observations from a re-analysis of the deposited data

How the results depend on the processing

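Among 791 alternative log2 fold changes of 33 genes (the 8 tested factors, Pparg and the named genes of the lists), 710 kept their direction and side of the threshold, 7 passed it newly, 11 lost it (all of Pparg) and 63 changed direction. The count of factors called was 0, and became 1 with DESeq2 and 2 with limma-voom; over the fits without one library each it ranged from 0 to 1, the 1 being Myod1 without knockout 2. Over all tested genes there were 131 calls, 399 with DESeq2, 389 with limma-voom, 9 without the 3 libraries of lowest fibre markers, 0 with matched libraries summed, and 6 (without knockout 3) to 214 (without knockout 2) with one library left out. The fit with the replicate number as a block called 236 genes and 0 factors. Same-numbered samples correlated at -0.133, 0.0187, 0.0553, 0.182, 0.0612 and 0.464, and only controls 4 and 6 correlated best with the knockout of their own number, so the numbers are a hint from the data at most. Of the lists, upstream factors (Tead4), satellite cell genes (Cdh15) and differentiation genes (Dok7) had 1 call instead of 0 with DESeq2 and with limma-voom, and differentiation genes also without a low-count filter; with one library left out these 3 lists ranged from 0 to 1, Tead4 and Cdh15 without knockout 2 and Dok7 without knockout 1 or 2. Pparg kept its direction throughout, with an adjusted p of 0.0979 without a low-count filter, 0.335 with matched libraries summed, 0.234 without the 3 libraries, and 0.0077 to 0.0856 with one library left out.

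The cause of the changes of direction was not tested. Without the 3 libraries of lowest fibre markers the log2 fold change was -0.0375 for Myf6, 0.0512 for Tcf3, -0.0226 for Eya2, 0.0641 for Hdac5, -0.0614 for Hdac9 and -0.0598 for Myh1. Tcf3 was 0.00922 with RLE scaling, 0.0150 with upper quartile scaling, 0.00952 with DESeq2, 0.0177 with limma-voom, 0.00723 and 0.000722 with the other low-count filters, 0.00235 with the block, and 0.0102 and 0.0110 on log2(FPKM + 1) and log2(FPKM + 0.1). With limma-voom Id1 was -0.00809 and Eya2 -0.0857. Hdac5 was 0.00357 with RLE, 0.00853 with upper quartile scaling, 0.00368 with DESeq2, 0.000807 without a filter and 0.0388 with matched libraries summed. Myh2 was -0.0166 with limma-voom, -0.0307 with the block, -0.000619 with the mitochondrial share as a covariate, -0.0605 and -0.0780 on the FPKM scales, and -0.0651 with matched libraries summed. With one library left out the ranges were -0.110 to 0.185 for Myf6, -0.0304 to 0.0505 for Tcf3, -0.0246 to 0.0664 for Tcf12, -0.0345 to 0.0855 for Id1, -0.0858 to 0.297 for Eya2, -0.0629 to 0.0431 for Hdac5, -0.0522 to 0.120 for Hdac9, -0.0800 to 0.211 for Myh1 and -0.325 to 0.392 for Myh2. Depth limits Pax3, at 1 to 8 counts a library, and Calcr, whose values rest on 144 counts in all.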
